A study of Homo sapiens with 9 samples.

Results

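The genes described here encode the enzymes that cut and crosslink the extracellular matrix and the proteins that hold those enzymes in check. They are the protein-coding rows of the count table whose Ensembl ID maps, in GENCODE 29, to MMP, ADAM or ADAMTS followed by a number, to TIMP1 to TIMP4, to PLAU, PLAUR or PLAT, or to LOX or LOXL1 to LOXL4. That rule, which reads names only, took 73 of the 60675 rows: 22 MMP, 20 ADAM and 19 ADAMTS genes, 4 TIMPs, 3 genes of plasminogen activation and 5 lysyl oxidases. MMP23B and MMP24OS carry other suffixes and fell outside it. The RNA sequenced came from SK-MEL-5, a human melanoma line with a mutated BRAF gene that is long established in culture. The 9 libraries were made from 3 isogenic subclones, named SC10, SC07 and SC01, each grown from a single cell by limiting dilution without drug, with 3 libraries apiece. All were untreated, and all carry the BRAF mutation of the parental line. Per the labels the subclones were picked by their first response to PLX-4720, a BRAF inhibitor, and which clone responded in which way is not stated, so each comparison asks what set 1 untreated clone apart from another. A clone stands for 1 cell of the parental line. The labels do not say whether a clone's 3 libraries stem from cultures kept apart, so p-values measure spread between libraries that may be technical only, and clone and any batch of culture cannot be told apart. In bulk RNA, fewer cells that express a gene and less RNA per cell cannot be told apart either.

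Matrix metalloproteinases (MMPs) are zinc enzymes made as inactive precursors. Some are secreted and others are anchored in the cell membrane, and tissue inhibitors of metalloproteinases (TIMPs) block them by binding the active site. ADAMs are membrane-bound relatives that shed receptors, ligands and adhesion molecules from the cell surface, although several have lost the catalytic site and act in adhesion. ADAMTS enzymes are secreted and cut procollagens and proteoglycans. PLAT and PLAU turn plasminogen into plasmin, a broad protease, and lysyl oxidases crosslink collagen and elastin. In melanoma these systems are known for their part in invasion through dermal matrix.

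Counts summed to between 30224066 and 39454087 per library. Within a clone, the chi-square of 2 libraries divided by its degrees of freedom was 2.54 to 11.6, above sampling noise, and each library was counted once. Replicate 3 of SC10 was the least like its 2 sister libraries (10.4 and 11.6, against 2.54 between those), and counts of members without it are given below. Of 8 melanocyte lineage markers, 7 were tested, and their summed level was 15271 to 15482 CPM in the SC10 libraries, 24432 to 24942 in SC07 and 10866 to 11523 in SC01. SOX10, a transcription factor of that lineage, had 0 counts throughout, and whether this stems from expression or from how reads were counted was not tested.

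Of the 73 members, 38 passed a filter on low counts (edgeR's filterByExpr) and were tested, and 35 did not. Among those 35, MMP13, MMP26, MMP27 and ADAM30 had 0 counts in every library, and no other reached more than 13 counts in any library. At this depth 3 counts in a library correspond to 0.0773 to 0.0947 CPM (counts per 1000000 counts, scaled by the TMM method of edgeR), so rarer transcripts were not detectable. The set was carried by few genes: 12 members reached a mean of 50 CPM in some clone. Summed per kilobase of annotated exon (RPKM), TIMPs held the largest part, with 312 ± 5.6 RPKM in SC10, 322 ± 10.4 in SC07 and 472 ± 6.4 in SC01 (mean ± SD, n = 3 here and below). MMPs summed to 68.2 ± 1.0 RPKM in SC10, 75.5 ± 4.0 in SC07 and 211 ± 1.7 in SC01. For ADAMs the sum was 127 ± 3.6 RPKM in SC10, 72.4 ± 0.70 in SC07 and 99.8 ± 1.8 in SC01, and for the plasminogen activators with PLAUR it was 29.9 ± 0.23 RPKM in SC10, 16.8 ± 0.95 in SC07 and 42.8 ± 0.27 in SC01. Lysyl oxidases summed to 1.01 ± 0.18 RPKM in SC10, 0.4996 ± 0.11 in SC07 and 34.1 ± 1.1 in SC01, and ADAMTS genes to 5.87 ± 0.19 RPKM in SC10, 8.19 ± 0.33 in SC07 and 5.31 ± 0.41 in SC01. SC01 therefore had the highest sum of TIMPs, MMPs, plasminogen genes and lysyl oxidases, SC10 that of ADAMs and SC07 that of ADAMTS genes, with no overlap between the libraries of the highest clone and the others in any of these 6 sums.

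**Figure D1:**
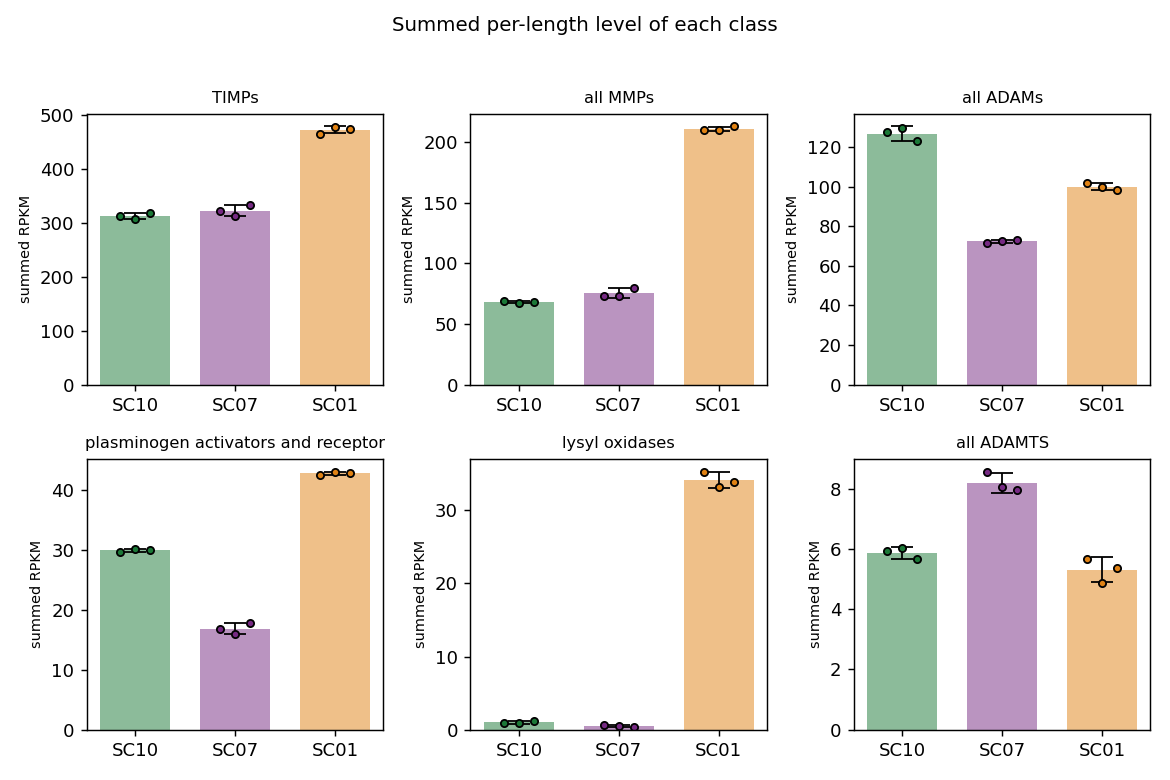
Summed RPKM (TMM-scaled CPM per kilobase of exon, linear axis from 0) of 6 gene classes in SC10, SC07 and SC01; points are libraries, bars means and error bars SD (n = 3). MMPs and lysyl oxidases stood out in SC01 (211 and 34.1 RPKM), while ADAMs peaked in SC10 and ADAMTS genes in SC07.

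SC07 against SC01 was the comparison in which the most members fell. Lower in SC07 were 22 of 38 tested members and 7 were higher, with a Benjamini-Hochberg adjusted p below 0.05 over all 18009 genes tested (quasi-likelihood test of edgeR). That is 57.9% and 18.4% of the members, and 76.3% in either direction. Over all genes, 30.5% were lower and 31.5% higher, together 62.0% (69.3% of protein-coding genes). With library totals as scaling instead of TMM, the split over all genes was 6841 lower and 4669 higher, in place of 5487 and 5675. With a change of at least 2-fold besides, 11 members were lower and 2 higher (34.2% together). Over all genes these shares were 8.68% and 9.15%, together 17.8% (17.1% of protein-coding ones). The members' median log2 change was -0.37, and that of all genes -0.01. The largest falls were those of MMP1 and LOXL3, and the largest gains those of MMP9, which is near 0 CPM in SC01, and ADAMTS17.

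In SC10 against SC01, which shares the SC01 libraries, 17 of 38 members were lower and 11 higher, beside 32.4% and 33.5% of all genes. In either direction it was 73.7% of the members, 65.9% of all genes and 72.9% of protein-coding ones. At least 2-fold changes numbered 10 lower and 4 higher (36.8% of the members), beside 8.30% and 11.2%, together 19.5%, of all genes (18.3% of protein-coding ones). The median log2 change was -0.30 among members and -0.01 among all genes.

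SC10 against SC07 ran the other way: 14 members were higher in SC10 and 9 lower, beside 24.8% and 23.0% of all genes. In either direction it was 60.5% of the members, 47.9% of all genes and 55.3% of protein-coding ones. At least 2-fold, 7 were higher and 3 lower (26.3% of the members), beside 5.84% and 2.79%, together 8.62%, of all genes (8.18% of protein-coding ones). Members had a median of 0.21 there, all genes of -0.01. Without SC10 replicate 3 the counts were 17 lower and 11 higher in SC10 against SC01, and 15 higher and 9 lower in SC10 against SC07. Testing the 3 clones together, 33 of 38 members differed (86.8%), beside 76.3% of all genes. The highest clone of these 33 was SC01 for 17, SC10 for 11 and SC07 for 5, and among all 13740 genes that differed it was SC01 for 40.7%, SC10 for 32.5% and SC07 for 26.9%.

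**Figure D2:**
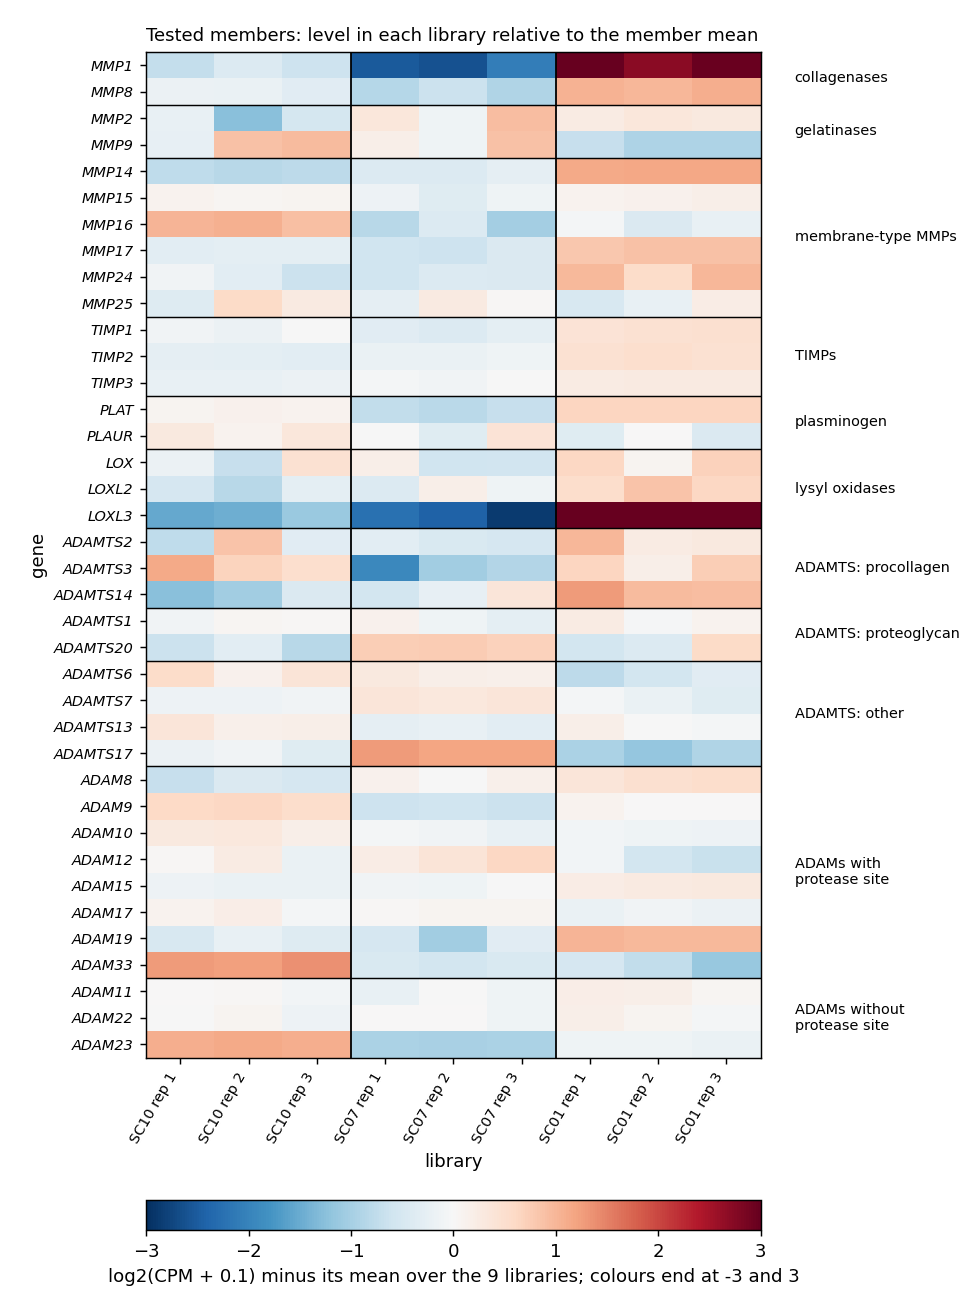
Level of the 38 tested members in the 9 libraries (columns: SC10, SC07, SC01), coloured by log2(CPM + 0.1) minus its mean over the libraries, with rows grouped by class. LOXL3 and MMP1 are the darkest rows, high in SC01 alone, while ADAM23 and MMP16 are high in SC10 and ADAMTS17 in SC07.

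LOXL3, a lysyl oxidase that oxidises lysines of collagen and elastin, showed the sharpest difference among the well-measured members. LOXL3 (ENSG00000115318, GRCh38 chr2:74532414-74555690, minus strand) had 3.35, 3.53 and 4.57 CPM in the SC10 libraries, 2.04, 1.78 and 1.28 in those of SC07 and 153, 144 and 147 in those of SC01. All 3 SC01 libraries lay far above the other 6, and the SC10 libraries above those of SC07. It was 86.8-fold lower in SC07 than in SC01 (log2 change -6.44 ± 0.095 SE, adjusted p = 1.48e-25, edgeR) and 38.8-fold lower in SC10 than in SC01 (-5.28 ± 0.085, adjusted p = 9.14e-25). SC10 exceeded SC07 by 1.16 ± 0.14 on the log2 scale (adjusted p = 3.14e-07). Of its exon bases 19.3% overlap DOK1 and HTRA2, and whether counting used strand is not known. DOK1 stood at 10.8 CPM in SC10, 4.48 in SC07 and 11.9 in SC01, and HTRA2 at 56.0 CPM in SC10, 44.9 in SC07 and 42.7 in SC01, neither with a gap of that size between SC01 and the other clones.

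The other lysyl oxidases were scarce. LOX, the founding member of the family, had 0.381, 0.237 and 0.649 CPM in the SC10 libraries, 0.517, 0.258 and 0.268 in those of SC07 and 0.741, 0.474 and 0.778 in those of SC01, and the clones overlapped. It was lower in SC07 than in SC01 by a narrow margin (-0.95 ± 0.41, adjusted p = 0.0458, edgeR), a call lost with DESeq2 (adjusted p = 0.08), without the filter (0.06), without SC01 replicate 1 or 3 (0.128 and 0.142), without SC07 replicate 2 or 3 (0.173 and 0.141) and without SC10 replicate 1 (0.0526). Against SC01, the change in SC10 was -0.66 (adjusted p = 0.148), and it passed the threshold without SC10 replicate 3 (adjusted p = 0.0401). LOXL2, which crosslinks basement membrane collagen, had 5, 3 and 6 counts in the SC10 libraries, 5, 11 and 7 in those of SC07 and 14, 16 and 14 in those of SC01. Each SC01 library held more counts of LOXL2 than any other library, and SC10 was lower than SC01 (-1.67 ± 0.49, adjusted p = 0.00389, edgeR), whereas SC07 gave -0.99 ± 0.45 (adjusted p = 0.0574). LOXL1 had 1 count in SC10, 1 in SC07 and 0 in SC01, and LOXL4 had 11, 3 and 6. LOXL3 held 87.0% of the summed RPKM of the family in SC10 and 77.9% in SC07, against 99.4% in SC01.

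Promoter windows of 5 members that changed at least 2-fold are shown, chosen after their values were seen so that each of the 3 clones is the highest in at least 1 of them. They run from 250 bases before to 50 bases after a transcription start, on the gene's strand from 5′ to 3′ (RefSeq, GRCh38.p14). Capitals mark matches, on either strand, of 6 motifs, each searched as exact letters. TGANTCA stands for the site of AP-1 factors, and TGACGTCA for the cyclic AMP response element. An E-box is spelled CACGTG here, while the M-box core, a site type of the melanocyte factor MITF, is CATGTG with the flanking letters left free. Sp1 factors bind the GC box, GGGCGG, and the TATA box was searched as TATAAA. No match of 1 motif overlapped that of another in these windows. LOXL3 has 2 annotated starts, with windows at chr2:74553893-74554192 and chr2:74549477-74549776. The window of MMP14, highest in SC01, lies at chr14:22836335-22836634. That of MMP8, also highest in SC01, lies at chr11:102724905-102725204. ADAM23, highest in SC10, has its window at chr2:206443282-206443581, and ADAMTS17, highest in SC07, at chr15:100341926-100342225.
LOXL3, first start: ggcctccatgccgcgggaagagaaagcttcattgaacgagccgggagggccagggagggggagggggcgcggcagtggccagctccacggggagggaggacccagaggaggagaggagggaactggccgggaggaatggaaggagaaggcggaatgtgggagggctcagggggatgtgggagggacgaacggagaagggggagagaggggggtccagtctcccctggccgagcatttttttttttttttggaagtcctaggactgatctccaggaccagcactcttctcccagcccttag
LOXL3, second start: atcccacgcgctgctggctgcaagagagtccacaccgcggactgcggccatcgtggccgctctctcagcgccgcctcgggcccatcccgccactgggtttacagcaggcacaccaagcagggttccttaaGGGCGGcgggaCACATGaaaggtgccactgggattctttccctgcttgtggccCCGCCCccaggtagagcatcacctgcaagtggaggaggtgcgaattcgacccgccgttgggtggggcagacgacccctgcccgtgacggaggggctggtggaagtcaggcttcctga
MMP14: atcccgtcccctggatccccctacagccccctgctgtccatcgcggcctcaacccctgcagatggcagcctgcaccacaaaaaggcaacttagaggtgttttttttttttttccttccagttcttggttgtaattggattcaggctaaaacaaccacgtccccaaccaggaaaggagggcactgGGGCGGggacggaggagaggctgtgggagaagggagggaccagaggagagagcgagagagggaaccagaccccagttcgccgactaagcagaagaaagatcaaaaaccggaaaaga
MMP8: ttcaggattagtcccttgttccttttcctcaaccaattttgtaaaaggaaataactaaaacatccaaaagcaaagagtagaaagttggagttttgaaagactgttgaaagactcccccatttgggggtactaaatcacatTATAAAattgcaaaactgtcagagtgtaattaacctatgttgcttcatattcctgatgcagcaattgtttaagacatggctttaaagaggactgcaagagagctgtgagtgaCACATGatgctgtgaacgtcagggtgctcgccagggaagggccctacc
ADAM23: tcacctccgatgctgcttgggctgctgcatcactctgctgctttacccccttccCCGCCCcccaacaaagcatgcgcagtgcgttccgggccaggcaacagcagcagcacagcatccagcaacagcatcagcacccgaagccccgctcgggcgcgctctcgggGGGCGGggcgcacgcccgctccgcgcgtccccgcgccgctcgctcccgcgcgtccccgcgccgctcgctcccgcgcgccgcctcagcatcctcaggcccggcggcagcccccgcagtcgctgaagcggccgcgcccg
ADAMTS17: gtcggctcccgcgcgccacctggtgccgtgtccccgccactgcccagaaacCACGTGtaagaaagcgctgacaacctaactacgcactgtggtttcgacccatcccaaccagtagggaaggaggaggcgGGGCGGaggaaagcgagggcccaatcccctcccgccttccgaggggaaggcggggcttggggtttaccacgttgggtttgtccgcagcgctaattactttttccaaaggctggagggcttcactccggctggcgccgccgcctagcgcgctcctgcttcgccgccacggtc

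None of these 6 windows held the AP-1 letters or the cyclic AMP response element. MMP8 alone of the 5 genes had a TATA box, starting 110 bases before the start site, and an M-box core at position 3 after it. LOXL3 had an M-box core and 2 GC boxes in the window of its second start and no match in the first. A GC box was present in MMP14, ADAM23 and ADAMTS17, and ADAMTS17 had an E-box besides. Windows were at hand for 44 of the 73 members. A member was counted if any of its windows matched, while the share beside it is over single windows. Members with several starts had more chances of a match, so the paired shares are not like for like. Of these 44, 29 held a GC box (65.9%, against 45.0% of 35116 windows of the same length), 8 a TATA box (18.2%, against 11.5%), 5 an AP-1 site (11.4%, against 7.71%), 5 an E-box (11.4%, against 7.26%), 4 an M-box core (9.09%, against 11.1%) and 1 a cyclic AMP response element (2.27%, against 1.85%). The 5 with an AP-1 site were ADAMTS12, MMP7, MMP10, MMP20 and PLAUR, of which PLAUR was tested. A match is a description of the letters, not a binding site.

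**Figure D3:**
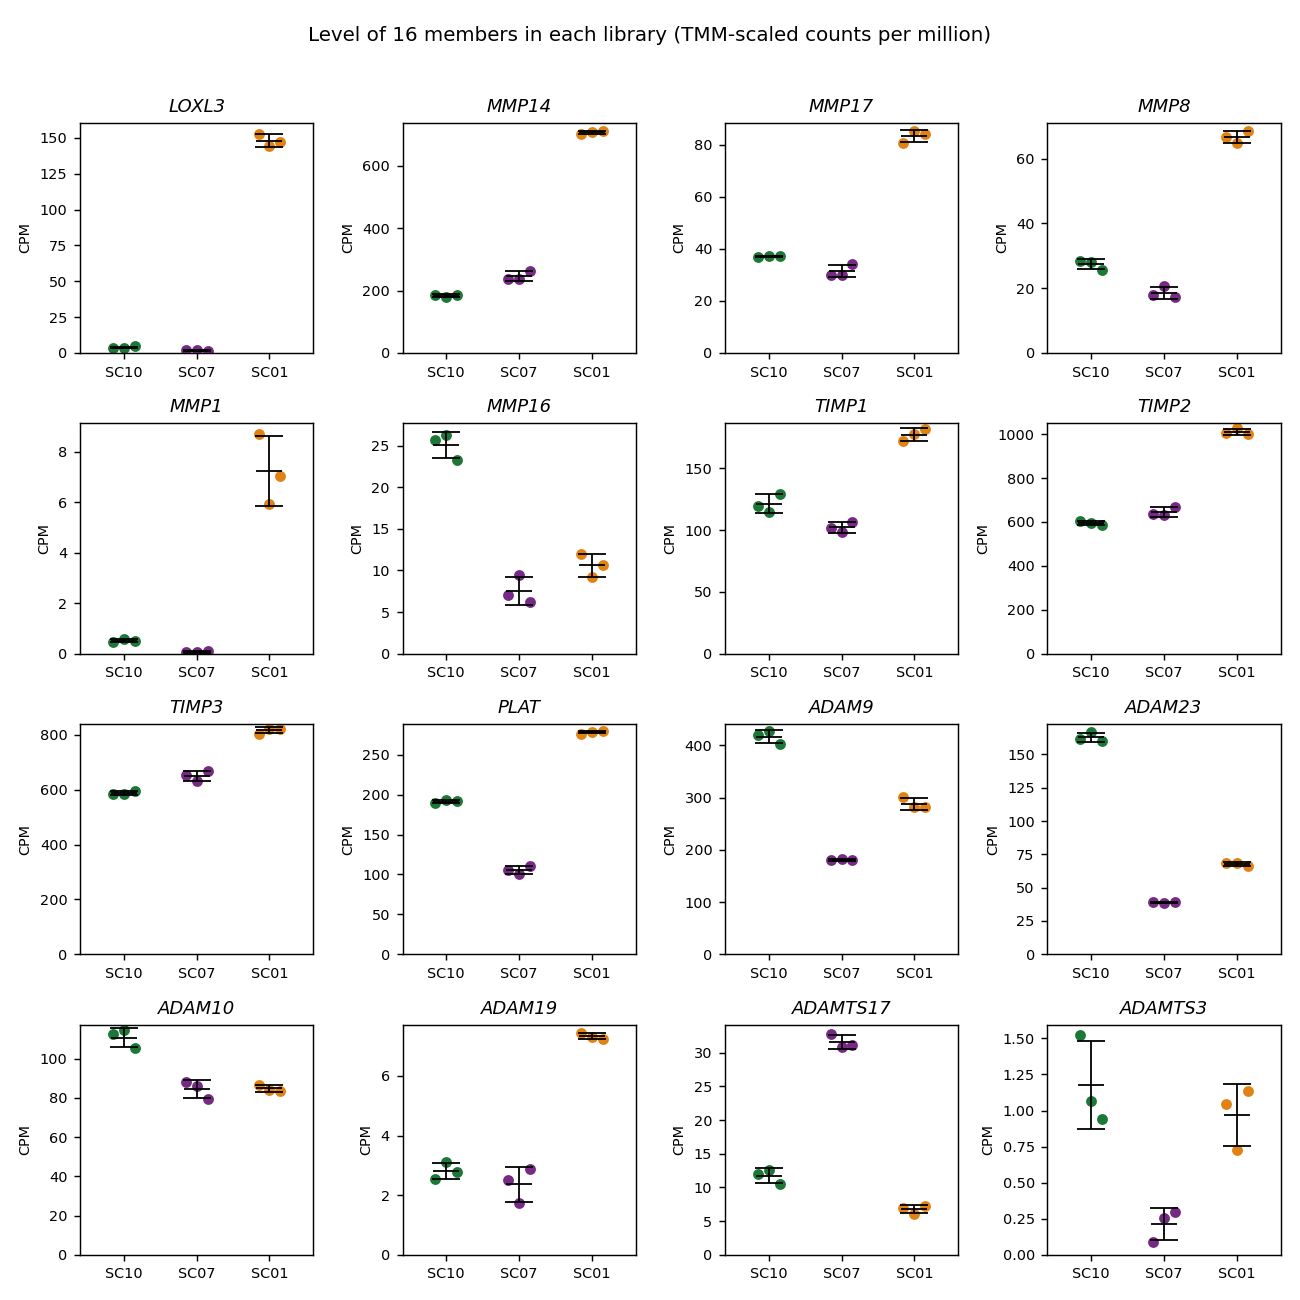
CPM (TMM-scaled, linear axes from 0) of 16 members in each library of SC10, SC07 and SC01; points are libraries, the bars mean ± SD (n = 3). LOXL3, MMP14, MMP17, MMP8, MMP1, TIMP1, TIMP2, TIMP3, PLAT and ADAM19 are highest in SC01, MMP16, ADAM9, ADAM23 and ADAM10 in SC10 and ADAMTS17 in SC07; for ADAMTS3, SC07 is the low clone.

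The 10 MMPs tested gave 1 higher and 7 lower in SC07 against SC01, 2 higher and 6 lower in SC10 against SC01 and 5 higher and 2 lower in SC10 against SC07. All genes tested had 31.5% higher and 30.5% lower in the first of these comparisons. The shares were 33.5% and 32.4% in the second and 24.8% and 23.0% in the third. Per kilobase, MMP14, a membrane-type MMP, led in every clone. This enzyme, MT1-MMP, cuts fibrillar collagen at the cell surface and, with TIMP2 as its partner, activates the secreted gelatinase MMP2. MMP14 (chr14:22836557-22849027) had 187, 178 and 185 CPM in the SC10 libraries, 238, 238 and 263 in those of SC07 and 702, 706 and 711 in those of SC01, so that the 3 clones did not overlap. Its log2 change was -1.52 ± 0.045 in SC07 and -1.95 ± 0.045 in SC10 against SC01, that is 2.87-fold lower and 3.86-fold lower (adjusted p = 2.32e-21 and 1.55e-23, edgeR), and -0.43 ± 0.044 in SC10 against SC07. MMP14 made up 60.2% of the summed RPKM of all MMPs in SC10, 73.1% in SC07 and 74.9% in SC01. MMP17, a membrane-type MMP held by a lipid anchor, had 36.8, 37.4 and 37.2 CPM in the SC10 libraries, 30.1, 29.98 and 34.3 in those of SC07 and 80.7, 85.1 and 84.2 in those of SC01, again with SC01 clear of the others. It was 2.65-fold lower in SC07 and 2.25-fold lower in SC10 than in SC01 (adjusted p = 1.34e-18 and 6.66e-17, edgeR).

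MMP16, or MT3-MMP, ran against this order. It had 25.7, 26.3 and 23.3 CPM in the SC10 libraries, 6.997, 9.40 and 6.17 in those of SC07 and 12.0, 9.19 and 10.6 in those of SC01, and every SC10 library exceeded every other one while SC07 and SC01 overlapped. MMP16 was 2.36-fold higher in SC10 than in SC01 (1.24 ± 0.12, adjusted p = 2.73e-07, edgeR) and 3.32-fold higher than in SC07 (1.73 ± 0.13), and lower in SC07 than in SC01 (-0.49 ± 0.14, adjusted p = 0.00532). MMP15, or MT2-MMP, differed little: its means were 30.3 ± 0.31 CPM in SC10, 24.8 ± 2.1 in SC07 and 31.5 ± 0.92 in SC01, lower in SC07 than in SC01 (-0.35 ± 0.064) and with no call between SC10 and SC01 (-0.055 ± 0.063, adjusted p = 0.459, edgeR). MMP24, a membrane-type MMP of the nervous system, had 1.12, 0.949 and 0.738 CPM in the SC10 libraries, 0.761, 0.876 and 0.865 in those of SC07 and 2.47, 1.80 and 2.48 in those of SC01. It was lower in SC07 (-1.43 ± 0.23) and SC10 (-1.26 ± 0.23) than in SC01. However, 21.8% of its exon bases overlap other genes, among them MMP24OS on the other strand. MMP24OS stood at 43.6 CPM in SC10, 28.6 in SC07 and 30.6 in SC01. Whether counting used strand is not known, so reads of this pair in the shared bases may not have been told apart. MMP25, with 35.2% of exon bases overlapped, lay under 0.6 CPM in every library, and no comparison passed the threshold.

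Secreted MMPs were few. Of the collagenases, MMP8, best known from neutrophils, was the more abundant per kilobase, at 7.97 RPKM in SC10, 5.40 in SC07 and 19.4 in SC01 against 0.264 RPKM in SC10, 0.0392 in SC07 and 3.67 in SC01 for MMP1. MMP8 (chr11:102711795-102727050) had 28.5, 28.0 and 25.6 CPM in the SC10 libraries, 17.9, 20.7 and 17.2 in those of SC07 and 66.7, 64.9 and 68.5 in those of SC01. The clones did not overlap, and MMP8 was 3.58-fold lower in SC07 (-1.84 ± 0.064, adjusted p = 1.18e-19, edgeR) and 2.44-fold lower in SC10 (-1.28 ± 0.062) than in SC01. SC10 lay above SC07 by 0.56 ± 0.067. MMP1, the interstitial collagenase (chr11:102789920-102798160), had 0.463, 0.593 and 0.502 CPM in the SC10 libraries, 0.0608, 0.0515 and 0.119 in those of SC07 and 8.70, 5.94 and 7.06 in those of SC01. The SC07 libraries held 2, 2 and 4 counts, the fewest of any clone, so the fitted change of -6.51 against SC01 (adjusted p = 2.34e-17) has a standard error that is too small, while SC10 differed from SC01 by -3.80 ± 0.21 (adjusted p = 2.68e-15, edgeR).

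Gelatinases, which cut denatured and basement membrane collagen, stayed low. MMP2, the usual target of MMP14, had 1.01, 0.445 and 0.797 CPM in the SC10 libraries, 1.55, 1.08 and 2.39 in those of SC07 and 1.45, 1.55 and 1.496 in those of SC01. All 3 SC10 libraries lay below the others, with a change of -1.14 ± 0.29 against SC07 (adjusted p = 0.00211, edgeR) and -0.99 ± 0.30 against SC01 (adjusted p = 0.00491). In SC07 the change against SC01 was 0.15 ± 0.27 (adjusted p = 0.651). Per kilobase, MMP2 measured 0.152 RPKM in SC10, 0.339 in SC07 and 0.304 in SC01, against 41.0 RPKM in SC10, 55.2 in SC07 and 158 in SC01 for MMP14. MMP9 had 4, 12 and 13 counts in the SC10 libraries, 6, 5 and 12 in those of SC07 and 2, 1 and 1 in those of SC01. It was higher in SC07 (2.38, adjusted p = 0.0103, edgeR) and SC10 (2.72, adjusted p = 0.00249) than in SC01. On so few counts, the SC07 call was lost without SC07 replicate 3 (adjusted p = 0.0815). Of the exon bases of MMP9, 18.4% overlap SLC12A5-AS1, at 1.19 CPM in SC10, 0.589 in SC07 and 0.684 in SC01. SLC12A5-AS1 was also higher in SC10 than in SC01 (0.79, adjusted p = 0.0217, edgeR), with no call in SC07 against SC01 (-0.22, adjusted p = 0.575). The stromelysins MMP3, MMP10 and MMP11, the matrilysins MMP7 and MMP26 and the other secreted MMPs, MMP12, MMP19, MMP20, MMP21, MMP27 and MMP28, were not tested for want of counts.

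As a class TIMPs had the largest sum per kilobase, and the 3 tested ones were lower in both SC07 and SC10 than in SC01. TIMP1, a secreted inhibitor of many MMPs, had 119.9, 115 and 129.6 CPM in the SC10 libraries, 102, 98.2 and 107 in those of SC07 and 172, 178 and 182 in those of SC01, with the clones in separate ranges. It fell by 0.79 on the log2 scale in SC07 (adjusted p = 4.35e-14, edgeR) and by 0.55 in SC10 (adjusted p = 9.18e-11). TIMP2, which also docks pro-MMP2 on MMP14, had 605, 594 and 585 CPM in the SC10 libraries, 636, 630.3 and 669 in those of SC07 and 1006, 1027 and 1001 in those of SC01. SC01 lay far above the others, and SC07 slightly above SC10. Its changes against SC01 were -0.65 ± 0.040 in SC07 and -0.77 ± 0.040 in SC10 (adjusted p = 5.23e-14 and 1.21e-15, edgeR), and that of SC10 against SC07 was -0.12 ± 0.040 (adjusted p = 0.0168), lost without SC07 replicate 3 (adjusted p = 0.0799). TIMP3, which binds to matrix and also inhibits ADAM17, had 586, 583 and 597 CPM in the SC10 libraries, 652, 631 and 669 in those of SC07 and 804, 823 and 823 in those of SC01. SC01 was again highest, and TIMP3 changed least of the 3, by -0.33 ± 0.040 in SC07 and -0.47 ± 0.040 in SC10 against SC01 (adjusted p = 4.16e-08 and 3.3e-11, edgeR). TIMP4 had 4 counts, all in SC07 replicate 2, and was not tested.

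The ratio of MMP to TIMP transcripts differed between the clones. Per kilobase, MMP14 stood to TIMP2 at a ratio of 0.389, 0.378 and 0.398 in the SC10 libraries, 0.473, 0.476 and 0.497 in those of SC07 and 0.881, 0.867 and 0.897 in those of SC01. The ratio of MMP14 to TIMP3 was 0.328, 0.315 and 0.319 in the SC10 libraries, 0.377, 0.388 and 0.406 in those of SC07 and 0.901, 0.884 and 0.891 in those of SC01. Both ratios were highest in SC01 and lowest in SC10, without overlap of clones. Over the whole classes, summed MMPs stood to summed TIMPs at 0.222, 0.220 and 0.213 in the SC10 libraries, 0.228, 0.234 and 0.240 in those of SC07 and 0.453, 0.441 and 0.449 in those of SC01. SC01 was highest there too, and SC07 and SC10 lay close together. These are ratios of transcripts and carry no test of their own.

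Plasminogen activation rested on PLAT, which encodes tissue plasminogen activator. PLAT (chr8:42175233-42207724) had 189, 193 and 191 CPM in the SC10 libraries, 106, 101 and 110.0 in those of SC07 and 277, 279 and 279 in those of SC01, in the order SC01, SC10, SC07 with no overlap. It was 2.64-fold lower in SC07 (-1.40 ± 0.043, adjusted p = 7.48e-21, edgeR) and 1.46-fold lower in SC10 (-0.54 ± 0.042) than in SC01, and 1.81-fold higher in SC10 than in SC07 (adjusted p = 1.95e-15). PLAU, the urokinase-type activator, had 3 counts over the 9 libraries (0 in SC10, 1 in SC07, 2 in SC01). PLAUR, the urokinase receptor, had 4.74, 4.15 and 4.93 CPM in the SC10 libraries, 3.80, 2.96 and 5.13 in those of SC07 and 2.99, 3.92 and 2.84 in those of SC01. SC10 was higher than SC01 by 0.51 ± 0.17 (adjusted p = 0.0116, edgeR), a call lost without SC01 replicate 1 or 3 (adjusted p = 0.0547 and 0.0616). The other 2 comparisons of PLAUR gave no call (0.28 in SC07 against SC01 and 0.22 in SC10 against SC07) except without SC07 replicate 2 (adjusted p = 0.0214) and without SC07 replicate 3 (adjusted p = 0.032).

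Partners of plasminogen activation were read beside them from a list of 16 genes, of which 12 were tested. The list had 4 higher and 5 lower in SC07 against SC01, 4 higher and 5 lower in SC10 against SC01 and 6 higher and 1 lower in SC10 against SC07. Shares over all genes, higher and lower, were 31.5% and 30.5%, 33.5% and 32.4%, and 24.8% and 23.0% in the same order. PLG, plasminogen itself, had 0 counts in all libraries. SERPINE2, a serpin that inhibits plasminogen activators, stood at 140.1 ± 3.8 CPM in SC10, 101 ± 2.8 in SC07 and 272 ± 2.1 in SC01. ANXA2 and S100A10 form a surface complex that binds PLAT and plasminogen. ANXA2 measured 223 ± 11 CPM in SC10, 129 ± 3.8 in SC07 and 347 ± 4.3 in SC01, and S100A10 measured 101 ± 10.5 CPM in SC10, 62.3 ± 1.3 in SC07 and 167 ± 2.4 in SC01. All 3 shared the order of PLAT, with log2 changes of -1.44, -1.42 and -1.42 in SC07 and -0.96, -0.64 and -0.73 in SC10 against SC01, all past the threshold in edgeR. LRP1, a receptor that clears protease and inhibitor complexes, changed by -0.51 and -0.63. SERPINB8, a serpin that inhibits furin, was higher in SC10 than in SC01 (0.90) and in SC07 (0.74).

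**Figure D4:**
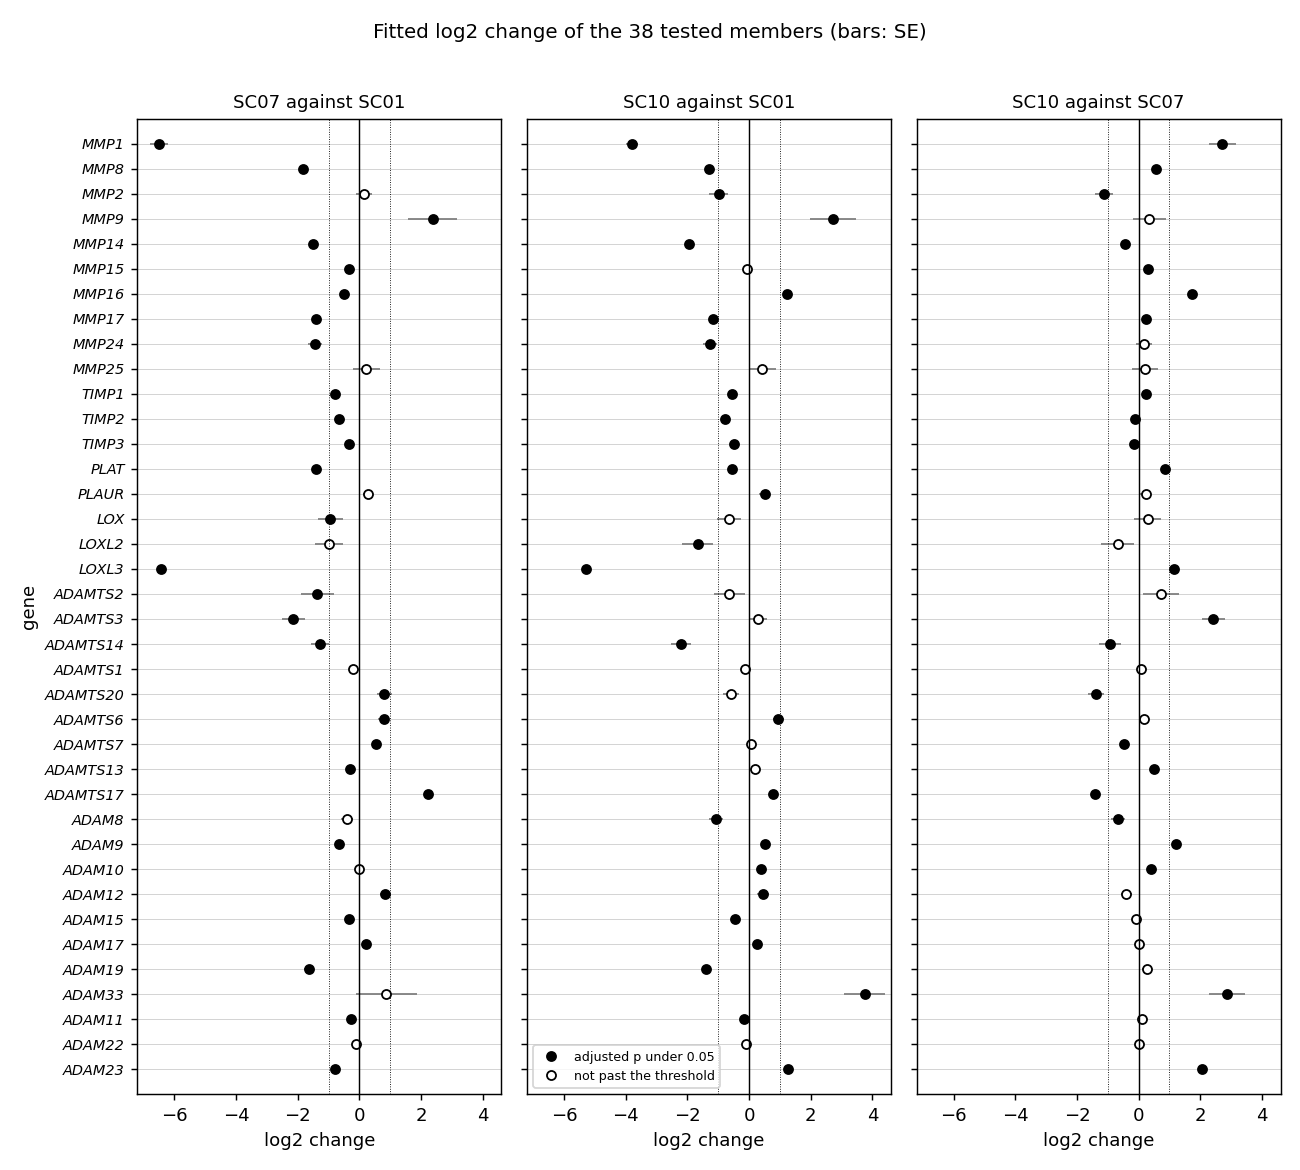
Fitted log2 change (± SE, edgeR) of the 38 tested members in the 3 comparisons; filled points passed an adjusted p of 0.05, open ones did not, and dotted lines mark 2-fold. LOXL3 and MMP1 lie farthest left against SC01, while ADAM23 lies left of 0 in SC07 and right of it in SC10.

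The 11 ADAMs tested gave 2 higher and 5 lower in SC07 against SC01, 6 higher and 4 lower in SC10 against SC01 and 4 higher and 1 lower in SC10 against SC07. Among all genes the shares higher and lower were 31.5% and 30.5%, 33.5% and 32.4%, and 24.8% and 23.0% in the same order. Per kilobase, ADAMs with a protease site were led by ADAM9, a sheddase that also binds integrins. ADAM9 (chr8:38996869-39105144) had 419, 427 and 403 CPM in the SC10 libraries, 180.3, 183 and 179.6 in those of SC07 and 301, 282 and 281 in those of SC01, with the clones in separate ranges and SC07 lowest. It was 1.45-fold higher in SC10 than in SC01 (0.53 ± 0.042, adjusted p = 9.35e-12, edgeR), 2.30-fold higher in SC10 than in SC07 (1.20 ± 0.043) and 1.59-fold lower in SC07 than in SC01 (-0.67 ± 0.043). ADAM10, the sheddase of Notch receptors and cadherins, had 112, 114 and 105 CPM in the SC10 libraries, 88.2, 85.8 and 79.2 in those of SC07 and 86.8, 84.2 and 83.6 in those of SC01. It was higher in SC10 than in SC01 (0.38 ± 0.049, adjusted p = 9.29e-08, edgeR) and than in SC07 (0.39 ± 0.049), and overlapped between SC07 and SC01 (-0.0077 ± 0.049, adjusted p = 0.904). ADAM15 had 123, 120.1 and 118 CPM in the SC10 libraries, 127, 125 and 136 in those of SC07 and 159, 165 and 168 in those of SC01 and was lower in SC07 (-0.34 ± 0.044) and SC10 (-0.45 ± 0.044) than in SC01. Between SC10 and SC07 its change of -0.10 missed the threshold (adjusted p = 0.0619, edgeR) and passed it without SC07 replicate 2 (adjusted p = 0.045).

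ADAM17, the sheddase of tumour necrosis factor and of EGFR ligands, had means of 35.7 ± 3.1 CPM in SC10, 35.1 ± 0.62 in SC07 and 30.1 ± 1.1 in SC01. It was slightly higher in SC07 (0.22 ± 0.062, adjusted p = 0.00275, edgeR) and SC10 (0.25 ± 0.062, adjusted p = 0.001) than in SC01. Both calls were lost with library totals as the only scaling (adjusted p = 0.106 and 0.0569), and 13.6% of its exon bases overlap other genes, among them IAH1, at 38.7 CPM in SC10, 31.2 in SC07 and 24.1 in SC01. ADAM19 had 2.56, 3.11 and 2.77 CPM in the SC10 libraries, 2.53, 1.73 and 2.86 in those of SC07 and 7.44, 7.29 and 7.24 in those of SC01. It stood clearly highest in SC01, with changes of -1.64 ± 0.15 in SC07 and -1.38 ± 0.15 in SC10 (adjusted p = 1.98e-10 and 3.07e-09, edgeR). ADAM8 had 0.817, 1.01 and 0.944 CPM in the SC10 libraries, 1.52, 1.37 and 1.55 in those of SC07 and 1.81, 1.99 and 2.03 in those of SC01, in the order SC01, SC07, SC10 without overlap. In SC07 against SC01 it missed the threshold (-0.40 ± 0.20, adjusted p = 0.0926, edgeR). Its change was -1.07 ± 0.22 in SC10 against SC01 (adjusted p = 8.56e-05, edgeR), and -0.68 ± 0.22 against SC07 (adjusted p = 0.0129), the second lost without SC10 replicate 1 (adjusted p = 0.0564).

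ADAM12, known from myoblasts and from several tumours, had means of 2.81 ± 0.45 CPM in SC10, 3.71 ± 0.52 in SC07 and 2.05 ± 0.49 in SC01. SC07 exceeded SC01 (0.85 ± 0.18, adjusted p = 0.000189, edgeR). For SC10 the call against SC01 (0.45, adjusted p = 0.0364) was lost with DESeq2 (adjusted p = 0.053), with library totals (adjusted p = 0.118), without SC01 replicate 2 or 3 (0.122 and 0.167) and without SC10 replicate 1 or 2 (0.0663 and 0.169). Between SC10 and SC07 its change of -0.40 (adjusted p = 0.0589, edgeR) passed the threshold without SC07 replicate 1 (adjusted p = 0.0466) or SC10 replicate 2 (adjusted p = 0.0374). ADAM33, an asthma-associated member, had 16, 14 and 16 counts in the SC10 libraries, 2, 2 and 2 in those of SC07 and 2, 1 and 0 in those of SC01, near 0 outside SC10. SC10 held 46 counts against 3 in SC01, a ratio of 14.9 with an exact 95% counting interval of 4.80 to 75.0. Not tested were ADAM20, ADAM21, ADAM28 and ADAM30.

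ADAMs that lack a protease site, which bind other surface proteins, gave 1 strong pattern. ADAM23, a brain-enriched partner of secreted LGI proteins (chr2:206443539-206621130), had 161, 166 and 160.3 CPM in the SC10 libraries, 38.9, 38.3 and 39.2 in those of SC07 and 68.4, 68.6 and 65.9 in those of SC01. The clones lay in 3 separate ranges, as for ADAM9. ADAM23 was 2.41-fold higher in SC10 than in SC01 (1.27 ± 0.044, adjusted p = 1.44e-19, edgeR), 4.19-fold higher than in SC07 (2.07 ± 0.046, adjusted p = 4.03e-23) and 1.74-fold lower in SC07 than in SC01 (-0.80 ± 0.047). It took 20.0% of the summed RPKM of all ADAMs in SC10, 8.34% in SC07 and 10.6% in SC01. ADAM22, a paralogue that binds the same ligands in brain, did not pass the threshold in any comparison, with means of 30.9 ± 2.5 CPM in SC10, 30.8 ± 1.6 in SC07 and 32.9 ± 2.5 in SC01. With library totals as scaling it passed in SC07 (-0.20) and in SC10 (-0.21) against SC01. ADAM11 had means of 43.9 ± 2.0 CPM in SC10, 40.6 ± 3.0 in SC07 and 49.0 ± 2.2 in SC01, lower in SC07 (-0.27 ± 0.058, adjusted p = 0.000225, edgeR) and in SC10 (-0.16 ± 0.058, adjusted p = 0.0185) than in SC01. The SC10 call was lost without SC10 replicate 3 (adjusted p = 0.0708), SC01 replicate 1 (0.0874) or SC01 replicate 2 (0.0624). Between SC10 and SC07 ADAM11 passed the threshold only without SC10 replicate 3 (adjusted p = 0.0229) or SC07 replicate 2 (0.0321). The rest of these ADAMs, ADAM2, ADAM7, ADAM18, ADAM29 and ADAM32, were not tested.

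A list of 16 genes that mature or move ADAMs was tested in full. It had 6 higher and 7 lower in SC07 against SC01, 8 higher and 4 lower in SC10 against SC01 and 5 higher and 3 lower in SC10 against SC07. All genes had shares of 31.5% higher and 30.5% lower, 33.5% and 32.4%, and 24.8% and 23.0% in the same order. Tetraspanins of the TspanC8 group carry ADAM10 to the surface. TSPAN14 measured 251 ± 13 CPM in SC10, 368 ± 11 in SC07 and 169.5 ± 5.0 in SC01, and TSPAN10 77.9 ± 2.2 CPM in SC10, 116 ± 5.0 in SC07 and 33.9 ± 1.8 in SC01, both highest in SC07. TSPAN15 measured 1.31 ± 0.26 CPM in SC10, 1.66 ± 0.21 in SC07 and 5.96 ± 0.62 in SC01 and was lower in SC07 (-1.83) and SC10 (-2.18) than in SC01. SH3PXD2B, a scaffold protein of invadopodia, measured 142 ± 13 CPM in SC10, 43.1 ± 2.1 in SC07 and 51.9 ± 0.60 in SC01, with a change of 1.73 in SC10 against SC07. SNX9, a sorting nexin that binds ADAM tails, changed by -0.98 in SC07 and -1.11 in SC10 against SC01. FRMD8, which stabilises the iRhom and ADAM17 complex, changed by 0.45 in SC10 against SC07 (adjusted p = 1.25e-07, edgeR).

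Genes taken as substrates of ADAM and ADAMTS enzymes made up another list of 20 genes, 17 of them tested. Against SC01, 5 were higher and 11 lower in SC07, and 8 higher and 6 lower in SC10. In SC10 against SC07, 8 were higher and 2 lower. Shares over all genes, higher and lower, were 31.5% and 30.5%, 33.5% and 32.4%, and 24.8% and 23.0% in the same order. CD44, the hyaluronan receptor, measured 328 ± 5.3 CPM in SC10, 263 ± 6.6 in SC07 and 770.0 ± 14 in SC01. VCAN, the proteoglycan versican, measured 346 ± 61 CPM in SC10, 71.6 ± 0.32 in SC07 and 252 ± 19 in SC01, lowest in SC07. NOTCH1 stood at 10.5 ± 1.6 CPM in SC10, 9.52 ± 0.38 in SC07 and 33.3 ± 0.28 in SC01 and NOTCH3 at 19.6 ± 2.1 CPM in SC10, 4.001 ± 0.54 in SC07 and 6.11 ± 0.40 in SC01, so that the first was highest in SC01 and the second in SC10. ALCAM, an adhesion molecule shed by ADAM17, rose in SC10 against SC01 (1.18). FBLN1, a matrix protein, measured 28.9 ± 1.1 CPM in SC10, 9.58 ± 0.21 in SC07 and 30.5 ± 0.89 in SC01. NECTIN1, an adhesion molecule cut by ADAM10, changed by 0.79 in SC10 against SC07 (adjusted p = 5.98e-11, edgeR).

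The 9 ADAMTS genes tested gave 4 higher and 4 lower in SC07 against SC01, 2 higher and 1 lower in SC10 against SC01 and 2 higher and 4 lower in SC10 against SC07. Among all genes the shares higher and lower were 31.5% and 30.5%, 33.5% and 32.4%, and 24.8% and 23.0% in the same order. The ADAMTS genes that trim procollagen, ADAMTS2, ADAMTS3 and ADAMTS14, stayed under 2 CPM in every library but were not alike across clones. ADAMTS3, which cuts procollagen II and activates VEGF-C, had 1.52, 1.07 and 0.944 CPM in the SC10 libraries, 0.0913, 0.258 and 0.298 in those of SC07 and 1.04, 0.726 and 1.14 in those of SC01, lower in SC07 than in SC01 (-2.14 ± 0.38, adjusted p = 2.07e-05, edgeR) and higher in SC10 than in SC07 (2.42 ± 0.37). SC07 alone was low, and SC10 and SC01 overlapped (0.28 ± 0.30, adjusted p = 0.416). ADAMTS14 had 0.245, 0.296 and 0.502 CPM in the SC10 libraries, 0.456, 0.592 and 0.955 in those of SC07 and 1.89, 1.48 and 1.47 in those of SC01, highest in SC01. It changed by -1.28 ± 0.29 in SC07 (adjusted p = 0.000439, edgeR) and -2.22 ± 0.33 in SC10 (adjusted p = 9.97e-07) against SC01. SC10 lay below SC07 (-0.94 ± 0.36, adjusted p = 0.0337), a call lost without SC07 replicate 3 (adjusted p = 0.227) and without SC10 replicate 1 or 2 (0.144 and 0.0982). ADAMTS2, the main procollagen I enzyme, lay under 0.7 CPM in every library. Its fall in SC07 against SC01 (-1.36, adjusted p = 0.0316, edgeR) was lost with DESeq2 (adjusted p = 0.0604), without SC01 replicate 1 (0.199) and without SC07 replicate 1, 2 or 3 (0.0591, 0.0857 and 0.0833). Against SC01, SC10 gave -0.63 with no call, and passed the threshold without SC10 replicate 2 (adjusted p = 0.0255).

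ADAMTS17, a secreted enzyme of the fibrillin system (chr15:99971589-100342005), was the leading ADAMTS transcript of SC07. It had 12.0, 12.7 and 10.5 CPM in the SC10 libraries, 32.8, 30.8 and 31.1 in those of SC07 and 6.999, 6.06 and 7.21 in those of SC01, with each clone in its own range. ADAMTS17 was 4.66-fold higher in SC07 (2.22 ± 0.084, adjusted p = 7.48e-19, edgeR) and 1.73-fold higher in SC10 (0.79 ± 0.090) than in SC01, and 2.69-fold lower in SC10 than in SC07 (-1.43 ± 0.078). It made up 46.8% of the summed RPKM of ADAMTS genes in SC07, against 24.2% in SC10 and 15.4% in SC01. ADAMTS20, a versican-cutting enzyme needed for melanoblast survival in mice, had 0.953, 1.22 and 0.826 CPM in the SC10 libraries, 2.62, 2.68 and 2.54 in those of SC07 and 1.02, 1.14 and 2.33 in those of SC01. SC07 was highest, although SC01 replicate 3 came near it. ADAMTS20 was higher in SC07 than in SC01 (0.81 ± 0.24, adjusted p = 0.00504, edgeR), which was lost without SC01 replicate 1 (adjusted p = 0.0527), and lower in SC10 than in SC07 (-1.39 ± 0.25, adjusted p = 5.72e-05). The change of -0.58 in SC10 against SC01 passed the threshold without SC01 replicate 1 or 2 (adjusted p = 0.0143 and 0.0282), without SC10 replicate 2 (0.0406) and with library totals (0.0289).

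ADAMTS7, which cuts the cartilage protein COMP, had means of 6.24 ± 0.14 CPM in SC10, 8.73 ± 0.14 in SC07 and 5.95 ± 0.63 in SC01 and was higher in SC07 than in SC01 (0.55 ± 0.10, adjusted p = 4.19e-05, edgeR). ADAMTS6, at 3.30 ± 0.50 CPM in SC10, 2.95 ± 0.16 in SC07 and 1.71 ± 0.29 in SC01, was higher in SC07 (0.79 ± 0.18) and SC10 (0.95 ± 0.18) than in SC01. ADAMTS13, the protease of von Willebrand factor, had means of 6.70 ± 0.54 CPM in SC10, 4.72 ± 0.14 in SC07 and 5.88 ± 0.50 in SC01. It was higher in SC10 than in SC07 (0.51 ± 0.11, adjusted p = 0.000576, edgeR) and lower in SC07 than in SC01 (-0.32 ± 0.12, adjusted p = 0.0193). The second of these calls was lost without SC01 replicate 1 (adjusted p = 0.103) or SC07 replicate 3 (0.0559). ADAMTS1, a versican- and aggrecan-cutting enzyme, had no call between clones (11.1 ± 0.72 CPM in SC10, 10.5 ± 1.5 in SC07 and 12.0 ± 1.2 in SC01), except in SC07 against SC01 without SC01 replicate 2 (adjusted p = 0.0325), without SC07 replicate 1 (0.0151) and with library totals (0.0122). The aggrecanases ADAMTS4 and ADAMTS5, with ADAMTS8, ADAMTS9, ADAMTS10, ADAMTS12, ADAMTS15, ADAMTS16, ADAMTS18 and ADAMTS19, were not tested.

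Members that lie side by side on a chromosome were not detected alike. On chromosome 11, 9 MMP genes lie in a row between 102520508 and 102955734 (GRCh38), all on the minus strand: MMP7, MMP20, MMP27, MMP8, MMP10, MMP1, MMP3, MMP12 and MMP13. MMP8 summed to 2861 counts in SC10, 1966 in SC07 and 6779 in SC01, and MMP1 to 54, 8 and 741. Between them sits MMP10, with 0 counts in SC10, 0 in SC07 and 2 in SC01, and none of the other 6 had more than 6 counts in a clone. On chromosome 8, ADAM9 summed to 43479 counts in SC10, 19051 in SC07 and 29307 in SC01. Its neighbour ADAM32 had 20, 9 and 18, and ADAM18 and ADAM2 had at most 4 in a clone. On chromosome 21, ADAMTS1 had 1158, 1104 and 1226 counts beside 0, 1 and 5 for the adjacent ADAMTS5.

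**Figure D5:**
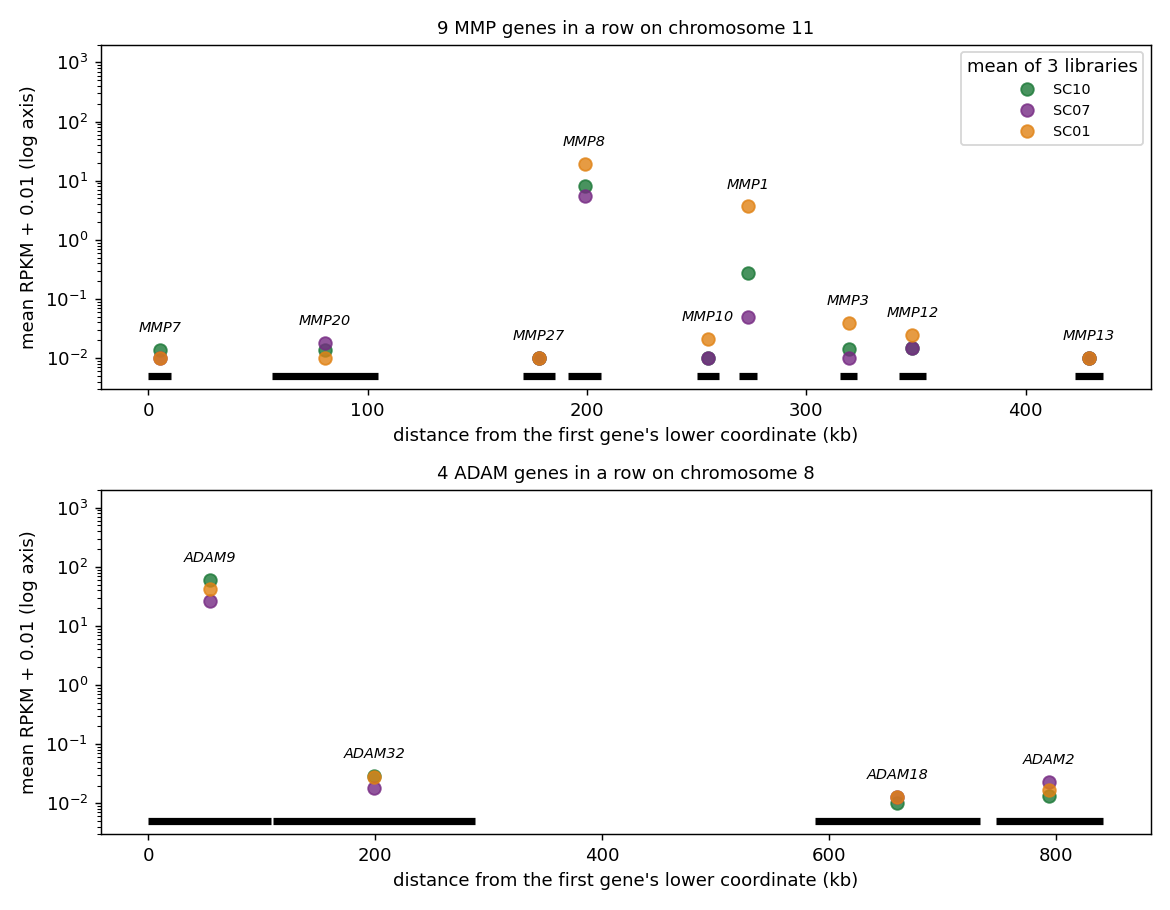
Mean RPKM + 0.01 (log axis) of neighbouring members on chromosomes 11 and 8 in SC10, SC07 and SC01 (n = 3) against distance along the chromosome; black bars are the gene bodies. MMP8 and MMP1 rise above 7 neighbours near 0, and ADAM9 (60.3 RPKM in SC10, 26.2 in SC07 and 41.7 in SC01) stands far above its 3 neighbours.

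Enzymes that activate or restrain the metalloproteinases were read from a list of 18 genes, of which 15 were tested. It had 3 higher and 9 lower in SC07 against SC01, 4 higher and 9 lower in SC10 against SC01 and 5 higher and 3 lower in SC10 against SC07. All genes had shares of 31.5% higher and 30.5% lower, 33.5% and 32.4%, and 24.8% and 23.0% in the same order. FURIN, which cuts the prodomain of membrane-type MMPs and ADAMs, measured 144 ± 7.0 CPM in SC10, 142 ± 6.3 in SC07 and 170.0 ± 2.5 in SC01. PCSK1, a convertase known for processing prohormones, had 1, 3 and 1 counts in the SC10 libraries, 1, 1 and 1 in those of SC07 and 726, 592 and 644 in those of SC01. All 3 SC01 libraries stood far above the other 6, in which PCSK1 was at 1 to 3 counts. Its mean was 0.0486 ± 0.035 CPM in SC10, 0.0287 ± 0.0025 in SC07 and 19.3 ± 0.62 in SC01. In SC07 against SC01 the count ratio was 0.0015, with an exact 95% counting interval of 0.00030 to 0.0043 (adjusted p = 4.28e-23, edgeR), and in SC10 against SC01 the fitted log2 change was -8.55 on 5 counts in SC10 (adjusted p = 6.17e-23). A2M, a protease trap, stood at 72.4 ± 3.0 CPM in SC10, 5.74 ± 0.60 in SC07 and 81.5 ± 7.7 in SC01, with a change of -3.83 in SC07 against SC01 and 3.66 in SC10 against SC07. PCSK6, a convertase, was higher in SC10 than in SC07 (1.51), and BSG, a surface protein that induces MMPs in neighbouring cells, was lower (-0.34). SPOCK1, a matrix proteoglycan, changed by -2.07 in SC07 and -1.92 in SC10 against SC01. CD82 and CD151 are tetraspanins, at -0.61 in SC10 against SC01 and 0.43 in SC10 against SC07.

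Partners of lysyl oxidation and collagen modification made up 26 genes, 23 of them tested. Their counts were 8 higher and 9 lower in SC07 against SC01, 12 higher and 7 lower in SC10 against SC01 and 11 higher and 3 lower in SC10 against SC07. Shares over all genes, higher and lower, were 31.5% and 30.5%, 33.5% and 32.4%, and 24.8% and 23.0% in the same order. FBLN5, which brings lysyl oxidases to elastin, measured 404 ± 3.2 CPM in SC10, 552 ± 9.3 in SC07 and 149 ± 0.97 in SC01. It was lowest in SC01, the clone with the most LOXL3. SERPINH1, the collagen chaperone HSP47, measured 1.91 ± 0.17 CPM in SC10, 5.63 ± 0.47 in SC07 and 0.312 ± 0.14 in SC01, PCOLCE, an enhancer of procollagen cutting, 13.8 ± 0.47 CPM in SC10, 11.9 ± 0.50 in SC07 and 6.22 ± 0.14 in SC01, and P3H3, a collagen prolyl hydroxylase, 14.9 ± 1.1 CPM in SC10, 4.62 ± 0.53 in SC07 and 26.1 ± 2.0 in SC01. P3H2, a relative of it, changed by 2.05 in SC10 against SC01. TGM2, a transglutaminase that crosslinks proteins at glutamine, stood at 14.7 ± 0.76 CPM in SC10, 1.78 ± 0.35 in SC07 and 2.20 ± 0.51 in SC01, highest in SC10. BMP1, the protease that releases active LOX, had means of 22.5 ± 0.61 CPM in SC10, 37.6 ± 2.0 in SC07 and 34.0 ± 2.1 in SC01.

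Markers of other cell types moved among the same libraries, and their part in these results was not tested. Fibroblasts express many of these genes. Beside the counts below, all genes tested had 31.5% higher and 30.5% lower in SC07 against SC01. The shares were 33.5% and 32.4% in SC10 against SC01 and 24.8% and 23.0% in SC10 against SC07. Of 9 fibroblast markers 6 were tested, with 2 higher and 3 lower in SC07 against SC01, 2 higher and 1 lower in SC10 against SC01 and 2 higher and 3 lower in SC10 against SC07. Their summed level was 364 to 401 CPM in SC10, 437 to 499 in SC07 and 162 to 169 in SC01, most of it LUM (350.0 CPM in SC10, 462 in SC07 and 131 in SC01), while COL1A1 stood at 1.15 CPM in SC10, 1.20 in SC07 and 2.04 in SC01 and DCN at 0.942 CPM in SC10, 2.70 in SC07 and 0.462 in SC01. None of the 9 was at 0 in all libraries, and FBLN1 is also on the list of substrates. Keratinocyte markers, 3 of 8 tested, summed to 23.5 to 27.2 CPM in SC10, 24.0 to 24.5 in SC07 and 22.7 to 25.1 in SC01, with KRT1 at 0 (2 higher and 0 lower in SC07 and 0 higher and 2 lower in SC10 against SC01). Immune markers, 1 of 8 tested, summed to 0.885 to 1.54, 3.34 to 3.91 and 0.389 to 1.01 CPM in the same order (1 higher and 0 lower in SC07 and 1 higher and 0 lower in SC10 against SC01). Endothelial markers, 3 of 6 tested, summed to 8.72 to 9.24, 14.5 to 15.9 and 23.5 to 24.6 CPM (1 higher and 1 lower in SC07 and 1 higher and 1 lower in SC10 against SC01). The 7 melanocyte lineage markers tested gave 5 higher and 2 lower in SC07 and 5 higher and 2 lower in SC10 against SC01. In SC10 against SC07 these melanocyte markers gave 3 higher and 4 lower. Keratinocyte markers gave 1 higher and 2 lower in that comparison, immune markers 0 higher and 1 lower, and endothelial markers 0 higher and 2 lower.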

How the data were processed

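The deposited table holds raw counts for 9 libraries, assigned to clones by their titles. According to the submitters' processing notes, the tools were HISAT2 and featureCounts and the build GRCh38; tool versions, gene annotation and strandedness, which can change counts of overlapping genes, were not given in the sources used here. Symbols, positions and exon lengths came from GENCODE 29, matched to 57055 of 60675 IDs. After filterByExpr (18009 genes left), TMM-scaled counts of the 9 libraries entered 1 robust quasi-likelihood fit (edgeR 4.0.16, R 4.3.3), and p-values were adjusted over all genes tested. Standard errors came from the log2 change and its F statistic and are too small where a clone holds few counts. RPKM is TMM-scaled CPM per kilobase of annotated exon (union). Intervals and floors cover counting error only. Alternatives were other scalings and filters, DESeq2 1.42.0, a replicate block and leaving out each library.

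Members and lists were chosen with earlier results of these data known. Values in every library are given for tested TIMP, plasminogen and lysyl oxidase genes, for other members changed at least 2-fold with a mean of 1 CPM or more, and for those at 50 CPM or more. Of each partner list, up to 4 genes per comparison are named, those with the largest changes among genes past the threshold at 5 CPM or more; others named were chosen after their values were seen. The split of ADAMs by protease site follows common knowledge of the family, since no protein table was used.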

Additional observations from a re-analysis of the deposited data

How the results depend on the processing

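Under every alternative run, each of the 7 counts of members stayed within 1.5 times its main value. Leaving out 1 library at a time, the members lower in SC07 against SC01 numbered 19 to 23 (22 with all libraries) and those higher 6 to 8 (7). For SC10 against SC01 the counts were 17 to 19 lower (17) and 9 to 11 higher (11), and for SC10 against SC07 14 to 15 higher (14) and 7 to 10 lower (9). Members that differed among the 3 clones numbered 32 to 35 (33). When only library totals were used for scaling, the median of all genes moved to -0.12 on the log2 scale both in SC07 and in SC10 against SC01, and with that scaling 27 members were lower and 6 higher in SC07, and 20 lower and 9 higher in SC10. Calls gained by that scaling included ADAM10 (adjusted p = 0.048), ADAM8 (0.0313) and LOXL2 (0.0343) in SC07 and MMP15 (0.0197) in SC10 against SC01, and ADAM15 (0.0392) in SC10 against SC07, each lower in the first clone. Of 1692 single values of tested members under the alternatives, 1635 kept their side of the threshold, 34 lost a call and 23 gained one, and no called value changed sign. The replicate block left the counts as they were (33 members among the 3 clones), and it lost or gained no call of a member. With 3 libraries per clone, whether the replicate numbers pair the libraries could not be settled. Deviations of libraries with the same number correlated between -0.020 and 0.043, and those with different numbers between -0.041 and 0.022. Not every library correlated best with its own number. Depth limits the 35 members that were not tested.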

Other observations

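Other extracellular proteases, outside the families described above, were read from a list of 24 genes, of which 15 were tested. Against SC01 it had 6 higher and 7 lower in SC07, and 7 higher and 5 lower in SC10. In SC10 against SC07, 8 were higher and 2 lower. Among all genes the shares higher and lower were 31.5% and 30.5%, 33.5% and 32.4%, and 24.8% and 23.0% in the same order. MME, the surface metalloprotease neprilysin, measured 18.7 ± 0.26 CPM in SC10, 0.980 ± 0.36 in SC07 and 28.1 ± 0.67 in SC01, with a log2 change of -4.86 ± 0.12 in SC07 against SC01 and 4.28 ± 0.13 in SC10 against SC07. HPSE, the heparanase that cuts heparan sulfate chains, measured 5.38 ± 0.39 CPM in SC10, 0.510 ± 0.060 in SC07 and 2.33 ± 0.53 in SC01. PRSS23, a secreted serine protease, measured 65.6 ± 6.0 CPM in SC10, 29.5 ± 1.5 in SC07 and 106 ± 4.2 in SC01, and HTRA1, another one, 59.0 ± 5.1 CPM in SC10, 46.7 ± 1.5 in SC07 and 106 ± 2.4 in SC01. All 4 were lower in SC07 than in SC01 in edgeR's test. CTSL, a cathepsin, measured 545 ± 39 CPM in SC10, 261 ± 7.2 in SC07 and 396 ± 19 in SC01, and CTSZ changed by 0.73 ± 0.048 in SC10 against SC01.

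A list of 8 ADAMTS-like and related secreted proteins had 3 tested genes, with 1 higher and 2 lower in SC07 as in SC10 against SC01, and 0 in either direction in SC10 against SC07. Of all genes, 31.5% were higher and 30.5% lower in SC07, and 33.5% and 32.4% in SC10, against SC01. In SC10 against SC07 the share in either direction was 47.9%. ADAMTSL5, a microfibril-associated protein without the protease domain of the ADAMTS enzymes, measured 16.8 ± 0.52 CPM in SC10, 16.1 ± 0.61 in SC07 and 6.48 ± 0.70 in SC01. Its change was 1.32 ± 0.088 in SC07 and 1.38 ± 0.087 in SC10 against SC01.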
